A study of Mus musculus with 4 samples.

Results

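Guanylate-binding proteins (GBPs) and immunity-related GTPases (IRGs) are GTP-hydrolysing proteins that mouse cells make in large amounts when they receive interferon-gamma (IFN-γ). For 10 of their genes, taken by symbol from a fixed list, the mRNA was followed in whole uteri of pregnant mice: the GBP genes Gbp2, Gbp3, Gbp4, Gbp6 and Gbp7, and the IRG genes Irgm1, Irgm2, Igtp, Iigp1 and Ifi47. They were 10 of 55421 genes counted, and all 10 were among the 14492 genes that had at least 1 CPM (the count of a gene scaled to a common library size) in at least 2 libraries and were tested. RNA sequencing had been done on uteri collected at gestational day E18.5 from 2 wild type mice (WT, strain C57BL/6J) and 2 mice without the Qa-2 antigen (Qa-2-, strain B6.Cg-H2b3/FlaCmwJ, also called B6.K1), with 1 library per uterus. Qa-2 belongs to the class Ib MHC proteins and is studied in mice as a possible stand-in for human HLA-G, and the comparison asked how the pregnant uterus differs when it is absent. All matings were syngeneic, so mother and fetuses shared the genotype. The Qa-2- strain is an H2 congenic strain and not a single-gene knockout, so the absence of Qa-2 and other differences of the exchanged chromosome 17 segment cannot be told apart. None of the 10 genes lies on chromosome 17.

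IFN-γ binds its receptor and activates the kinases JAK1 and JAK2. The promoters of the genes it induces carry gamma-activated sites (GAS) and interferon-stimulated response elements (ISRE), which the factor IRF1 binds and type I interferons use as well. The GTPases then load onto the vacuoles of intracellular bacteria and parasites and help to break them open. Irgm1, Irgm2 and Igtp (also called Irgm3) encode regulators that sit on the membranes of the cell itself and hold the others inactive, whereas Iigp1 (Irga6) and Ifi47 (Irgd) encode effectors that accumulate on the vacuole. In the pregnant mouse uterus, IFN-γ is known as a product of uterine NK cells and acts on the spiral arteries and the decidua.

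The promoters of these genes are shown first because both kinds of site can be read in them. RefSeq promoter windows of GRCm38.p6, 300 bases long with 250 bases before and 50 bases after the start site, were at hand for 7 of the 10 genes (2 windows for Gbp3), and Gbp4, Gbp6 and Iigp1 were not among them. The ISRE core was searched as GAAANNGAAA and the GAS core as TTCNNNGAA, on both strands, where the GAS core reads the same on either strand. The ISRE core was present for 6 of the 7 genes, against 1131 of all 32851 promoter windows (3.44%), and the GAS core for 3 of the 7, against 2726 windows (8.3%). Gbp7, Igtp and Irgm2 held both, as did 149 windows in all (0.454%). Ifi47 held neither in its window. The stretches around the ISRE core nearest to the start site are given 5′ to 3′ on the strand of the gene, with the bases of an ISRE or GAS core in capitals. Those of Gbp2 and Irgm1 are kept short because GENCODE M21 places their ISRE core inside the first exon.
Gbp2: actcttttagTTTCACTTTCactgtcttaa
Gbp3: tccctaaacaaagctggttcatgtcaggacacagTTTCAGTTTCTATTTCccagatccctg
Gbp7: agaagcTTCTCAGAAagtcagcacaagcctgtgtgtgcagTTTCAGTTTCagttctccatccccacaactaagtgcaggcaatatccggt
Irgm1: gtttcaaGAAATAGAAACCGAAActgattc
Irgm2: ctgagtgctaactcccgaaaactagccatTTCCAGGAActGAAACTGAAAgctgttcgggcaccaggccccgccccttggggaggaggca
Igtp: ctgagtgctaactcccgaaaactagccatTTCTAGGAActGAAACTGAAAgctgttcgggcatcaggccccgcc
The stretches lie at chr3:142620594-142620623 (Gbp2, plus strand), chr3:142559965-142560025 (Gbp3, plus), chr3:142530243-142530332 (Gbp7, plus), chr11:48871428-48871457 (Irgm1, minus), chr11:58214873-58214962 (Irgm2, plus) and chr11:58199482-58199555 (Igtp, plus). In Gbp3 and in Irgm1 a pair of ISRE cores overlap and are capitalised as 1 block. Gbp7 held a second GAS core, at -106 from the start site, outside the stretch shown. Igtp and Irgm2 were alike, with 61 of 63 aligned bases identical (96.8%) and the GAS core just upstream of the ISRE core in both. Irgm1 shared 50.9% of the compared bases with Igtp, and Gbp2 shared 44.1% with Gbp3. All pairs were lined up on the ISRE core without gaps, so within a family, where the cores face the same way, the fixed core bases match in advance. Pairs of a GBP and an IRG gene, whose cores face opposite ways, shared 13.2% to 22.6%. In the 6 genes the ISRE core began between -64 (Irgm2) and -24 (the second core of Irgm1) from the start site. These matches describe the letters in the windows, and binding was not measured.

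**Figure D1:**
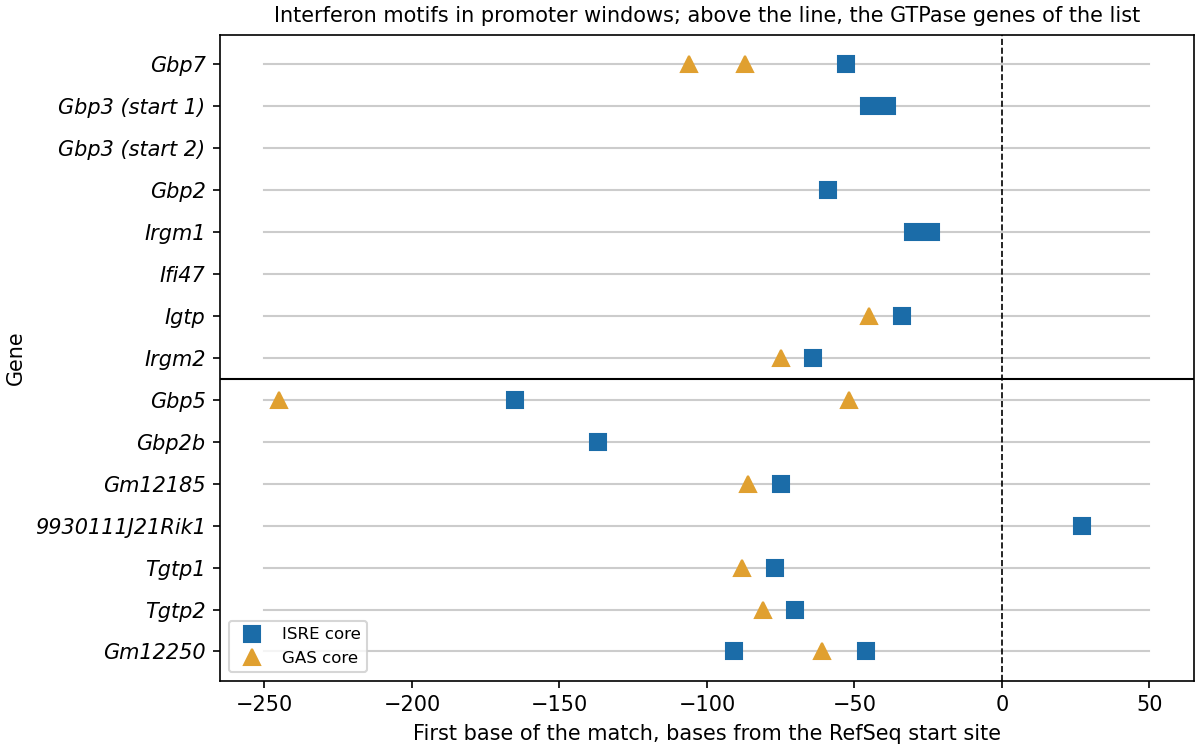
Positions of ISRE cores (squares) and GAS cores (triangles) in the RefSeq promoter windows, as bases from the start site (dashed line); the x position is the first base of a match and each grey line spans a 300-base window. Above the black line are the 8 windows searched for the 10-gene list, in which the ISRE cores start between -64 and -24. Below it are the 7 other GBP and IRG family genes with a match. Family genes on chromosome 18, Iigp1 among them, were left out of the search.

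The libraries held between 33286390 and 41041299 read pairs counted on genes, both WT libraries being deeper, and each of the 10 genes had at least 71 counts in every library, far above a floor of 3 counts (0.0731 to 0.0901 CPM of the total counts before TMM scaling, for counting error only). The Qa-2 genes H2-Q6 and H2-Q7 followed the labels, with 1192 to 6318 counts in the WT libraries and 2 to 4 counts in the Qa-2- libraries. Uterine smooth muscle markers were the most abundant of all marker lists in every library, as the tissue label calls for. Placenta and yolk sac transcripts set libraries apart: Psg21, a placental glycoprotein, was seen in WT replicate 2 only, with 308 counts against 0 elsewhere, and Afp, a yolk sac product, had 374 CPM in Qa-2- replicate 1 against 3.94 to 33.7 CPM elsewhere. The mRNAs of NK cell killing also stood apart, with Gzmc at 150 CPM in WT replicate 1 against 1.02 to 4.84 CPM elsewhere. With edgeR's quasi-likelihood test and Benjamini-Hochberg adjustment, 0 of 14492 genes had an adjusted p under 0.05 (0%). At an unadjusted p under 0.05, 1172 genes were higher in WT (8.09%) and 1027 in Qa-2- uteri (7.09%), and DESeq2 called 404 (2.79%) and 296 genes (2.04%) by adjusted p. Both WT libraries lay above both Qa-2- libraries for 25.4% of genes tested, and below both for 24.5%. With 2 uteri per group the smallest two-sided p of an exact permutation test of 1 gene is 0.33, and p-values here measure only the spread between these few uteri.

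All 10 GTPase genes had a higher fitted mean in WT than in Qa-2- uteri, although the mean TPM of Gbp3, scaled for length and without TMM, was 26.7 in both groups, and none passed the adjusted threshold of edgeR. Log2 fold changes (WT over Qa-2-) ran from 0.14 (Gbp3) to 0.79 (Iigp1), with a median of 0.44, where the median over all genes tested was 0.01. For 8 of the 10 genes both WT libraries lay above both Qa-2- libraries, as they did for 25.4% of all genes tested, and for Gbp3 and Gbp4 the groups overlapped. This count depended on the scaling, being 7 with library totals alone, 9 with upper-quartile normalization and 6 on TPM, where Gbp2 and Irgm1 overlapped as well. The share of all genes was counted on the TMM scale only, so these other counts have no such share beside them. For 0 of the 10 did both Qa-2- libraries lie above on the TMM scale. Igtp, Iigp1 and Ifi47, 3 of the 10, had an unadjusted p under 0.05, as did 8.09% of all genes tested with higher values in WT, and Iigp1 was the 1 gene that DESeq2 called. The number at that unadjusted threshold was 1 with a replicate block or without Qa-2- replicate 1. With the block, 717 of all 14492 genes tested were higher in WT at that threshold, against 1172 in the main fit. Among the 5 GBP genes the median was 0.37, with 3 of 5 free of overlap and 0 at the unadjusted threshold. Among the 5 IRG genes it was 0.57, with 5 of 5 free of overlap and 3 at the threshold, but the difference between the families was not tested. Within a bulk tissue, fewer cells that carry these mRNAs and less mRNA per cell cannot be told apart.

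**Figure D2:**
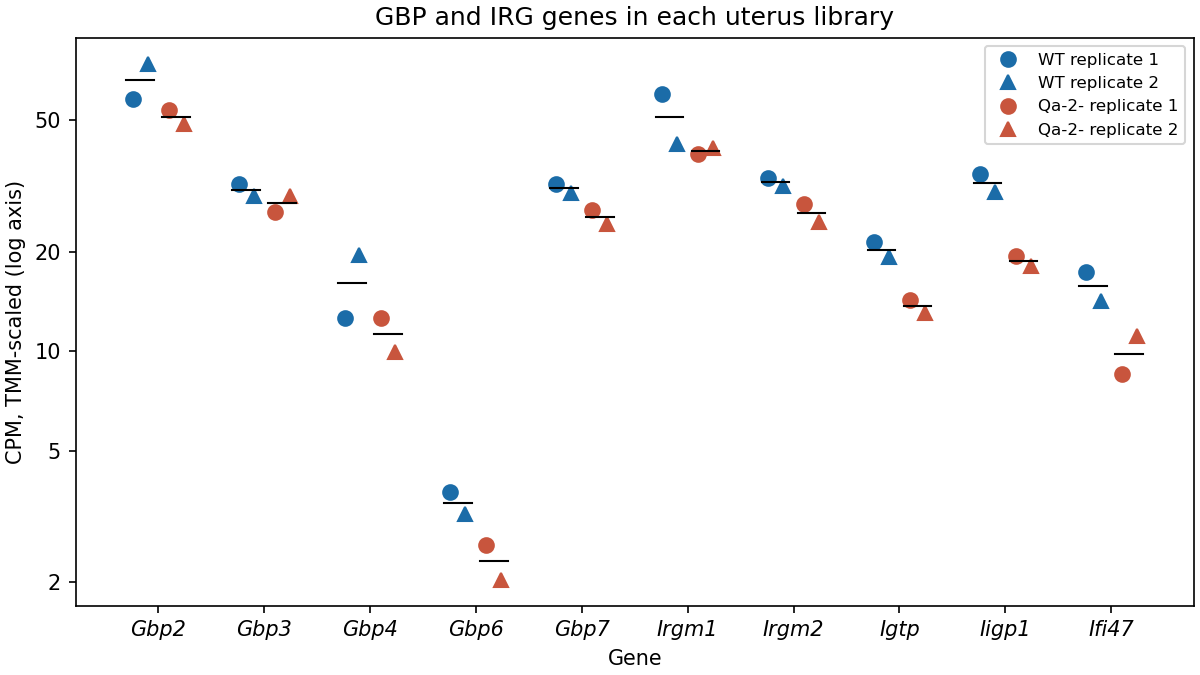
CPM on TMM-scaled library sizes (log axis) of the 10 GTPase genes in each uterus library; blue marks WT, red marks Qa-2-, circles are replicate 1, triangles replicate 2, and black lines are group means. The blue points lie above the red ones in 8 genes and overlap them in Gbp3 and Gbp4.

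Per length, Gbp2 was the most abundant of the 10 mRNAs and Gbp6 the least. As TPM (transcript abundance scaled for the exon length of all isoforms together and for depth), Gbp2 averaged 69.0 over the 4 libraries, with a range from 59.0 to 86.6, and was above every other gene in each library. Gbp3 (26.7 TPM), Igtp (24.8), Irgm2 (23.6) and Irgm1 (23.2) followed so closely that each was above the next in only 2 of 4 libraries, except that Irgm1 was above Ifi47 in all 4. Ifi47 (15.2), Gbp7 (14.9) and Iigp1 (12.9) came next, and each of the first pair was above its follower in 3 of 4 libraries. Gbp4 (5.41) lay below Iigp1 in all 4 libraries, and Gbp6 (1.43) lay below Gbp4 in all 4. The summed TPM of the IRG genes over that of the GBP genes was 1.05 and 0.771 for WT replicates 1 and 2 and 0.778 and 0.810 for Qa-2- replicates 1 and 2. WT replicate 1 was thus the library in which the IRG genes weighed most, and the other WT library was as low as the Qa-2- libraries.

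Gene coordinates are those of the count files, on GRCm38.p6. Among the GBP genes, Gbp2 (ENSMUSG00000028270, chr3:142620602-142638008, plus strand), whose protein is recruited to the Toxoplasma vacuole, had 57.8 and 74.2 CPM in WT replicates 1 and 2 and 53.6 and 48.6 CPM in Qa-2- replicates 1 and 2. The groups did not overlap, although WT replicate 1 lay nearer to Qa-2- replicate 1 than to the other WT library. The log2 fold change of Gbp2 was 0.37 ± 0.18 (SE; 95% interval -0.09 to 0.83), with an unadjusted p of 0.0948 and an adjusted p of 0.396. Without WT replicate 2 it was 0.18. Gbp7 (ENSMUSG00000040253, chr3:142530342-142550149, plus), which takes part in oxidative defence and vacuole targeting, had 32.1 and 30.2 CPM in WT against 26.8 and 24.3 CPM in Qa-2- uteri. Its replicates were close to each other, and WT was higher by 0.28 ± 0.16 on the log2 scale (interval -0.11 to 0.68, adjusted p = 0.435). Of the Gbp7 exon bases, 11.3% are shared on the same strand with Gm43802, and pairs falling on several genes were not counted.

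Gbp3 (ENSMUSG00000028268, chr3:142560026-142573209, plus) is a less studied GBP that lies between Gbp7 and Gbp2. It had 32.2 and 29.5 CPM in WT and 26.5 and 29.6 CPM in Qa-2- uteri, and Qa-2- replicate 2 fell inside the WT range. With all libraries the difference was the smallest of the 10 genes, 0.14 ± 0.16 on the log2 scale (interval -0.27 to 0.54, adjusted p = 0.707), and the interval allows a fold from 0.831 to 1.46. Without WT replicate 1 it was 0.05, above Irgm1 (0.04). Without WT replicate 2 it was 0.20, above Gbp2 (0.18) and Gbp4 (0.16).

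The chromosome 5 genes Gbp4 and Gbp6 were the least abundant per length. Gbp4 (ENSMUSG00000079363, chr5:105115767-105139586, minus) had 12.6 and 19.5 CPM in WT and 12.6 and 9.94 CPM in Qa-2- uteri. Only WT replicate 2 stood above the rest, so the groups overlapped, and the log2 fold change of 0.51 ± 0.29 (interval -0.22 to 1.24, adjusted p = 0.444) was 0.16 without that library. Gbp6 (ENSMUSG00000104713, chr5:105270702-105293698, minus) had 3.74 and 3.21 CPM in WT and 2.60 and 2.03 CPM in Qa-2- uteri, from 150, 121, 92 and 71 counts. It was higher in both WT libraries, by 0.59 ± 0.33 on the log2 scale (interval -0.25 to 1.42, adjusted p = 0.442). Its level is uncertain, because 29.0% of its exon bases are shared with Gm43302 and 51.3% of the 100-base windows of its longest transcript also occur in another gene.

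Of the 3 regulator IRG genes, Igtp showed the clearest separation. Igtp (ENSMUSG00000078853, chr11:58199556-58207591, plus), needed for the control of Toxoplasma, had 21.4 and 19.2 CPM in WT and 14.3 and 13.1 CPM in Qa-2- uteri. Each WT library was between 1.34 and 1.63 times each Qa-2- library, while the libraries within a group differed by at most 1.11 times. The log2 fold change was 0.57 ± 0.18 (interval 0.12 to 1.02), with an unadjusted p of 0.0228 and an adjusted p of 0.286, and in 4 of 4 fits with a library left out the unadjusted p was above 0.05 (0.0513 to 0.136).

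Irgm2 (ENSMUSG00000069874, chr11:58199618-58222782, plus), a regulator on the Golgi apparatus that restrains the response to bacterial lipopolysaccharide, had 33.4 and 31.6 CPM in WT and 27.9 and 24.6 CPM in Qa-2- uteri. The groups were apart by less than for Igtp, at 0.31 ± 0.16 on the log2 scale (interval -0.10 to 0.71, adjusted p = 0.416). Igtp and Irgm2 share 162 exon bases, 8.01% of those of Igtp and 4.39% of those of Irgm2.

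Irgm1 (ENSMUSG00000046879, chr11:48861968-48871683, minus), which is tied to autophagy and to the survival of activated T cells, was uneven among the WT uteri. WT replicate 1 had 60.1 CPM but WT replicate 2 only 42.2 CPM, and the Qa-2- uteri had 39.6 and 41.2 CPM. WT replicate 2 exceeded the higher Qa-2- library by only 1.03 times. The log2 fold change of 0.34 ± 0.21 (interval -0.20 to 0.88, adjusted p = 0.478) was 0.04 without WT replicate 1.

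With all libraries the effectors Iigp1 and Ifi47 had the 2 largest differences of the 10 genes. This order depended on single libraries. Without WT replicate 1, Gbp4 (0.77) was above Iigp1 (0.67) and Ifi47 (0.50). Without Qa-2- replicate 1, Gbp6 (0.77), Gbp4 (0.69) and Igtp (0.63) were above Ifi47 (0.50). Iigp1 (ENSMUSG00000054072, chr18:60376027-60392634, plus), whose protein coats the Toxoplasma and Chlamydia vacuoles, had 34.4 and 30.4 CPM in WT and 19.4 and 18.1 CPM in Qa-2- uteri, from 1378, 1145, 687 and 633 counts. The lowest WT value was 1.57 times the highest Qa-2- value, while the libraries within a group differed by at most 1.13 times. WT was 1.73-fold higher (95% interval 1.30 to 2.30), a log2 fold change of 0.79 ± 0.16 that exceeded those of 93.5% of all genes tested. The unadjusted p was 0.0043 and the adjusted p 0.246 with edgeR, against an adjusted p of 0.0319 with DESeq2, and over all alternatives with a test the adjusted p of Iigp1 ran from 0.0319 to 0.829. The annotation shows no exon base of Iigp1 on its strand, and no 100-base window of its longest transcript, in common with another gene.

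Ifi47 (ENSMUSG00000078920, chr11:49076587-49096974, plus) had 17.4 and 14.2 CPM in WT and 8.56 and 11.1 CPM in Qa-2- uteri. WT was higher in both libraries, between 1.27 and 2.03 times for the pairs of libraries, and Qa-2- replicate 2 was the closest to WT. The log2 fold change was 0.68 ± 0.24 (interval 0.07 to 1.28), with an unadjusted p of 0.0341 and an adjusted p of 0.306. The unadjusted p was 0.0783 with a replicate block and above 0.05 in 2 of 4 fits with a library left out. Ifi47 is the gene whose promoter window held no ISRE or GAS core. Of its exon bases, 4.49% overlap Olfr56.

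Within the WT group the genes fell into 2 patterns. WT replicate 1 was the highest of the 4 libraries for 8 of the 10 genes, whereas Gbp2 and Gbp4 were highest in WT replicate 2. The ratio of WT replicate 1 to WT replicate 2 ran from 0.644 (Gbp4) and 0.780 (Gbp2) to 1.23 (Ifi47) and 1.42 (Irgm1). In the Qa-2- group it was Gbp3, Irgm1 and Ifi47 that were lowest in replicate 1, while the other 7 were lowest in replicate 2. The profile of Igtp lay closest to the mean profile of the 10 genes, at a Euclidean distance of 0.134 in log2 CPM centred over the 4 libraries, and that of Gbp4 lay farthest, at 0.529.

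**Figure D3:**
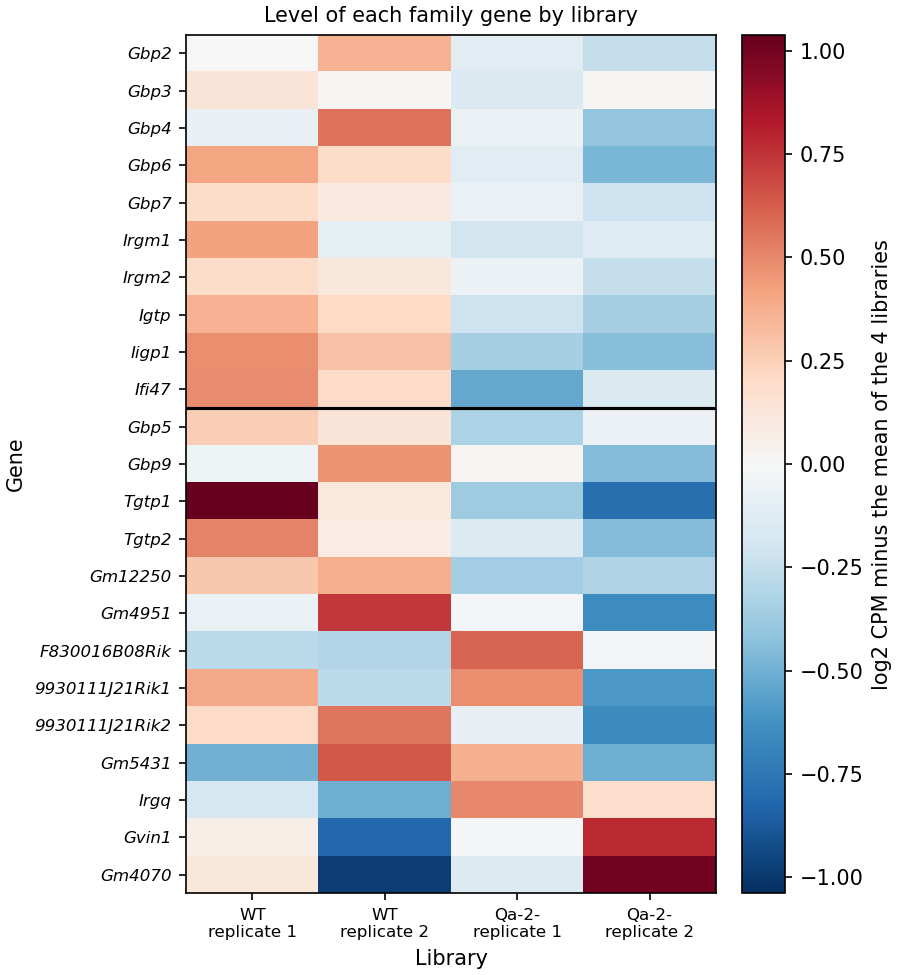
Level of the 23 GBP and IRG family genes that were tested, as log2 CPM minus the mean of the 4 libraries (red above, blue below the mean); the 10 listed genes stand above the black line and 13 others below it. Of the upper 10 genes, 8 are highest in WT replicate 1, and Gbp2 and Gbp4 are highest in WT replicate 2.

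The rest of the family gave a mixed picture. Of 19 further GBP and IRG genes, 13 passed the filter, 9 with a higher and 4 with a lower fitted mean in WT, and their median log2 fold change was 0.38, against 0.22 without WT replicate 2 and 0.68 without Qa-2- replicate 1. For 5 of the 13 both WT libraries lay above both Qa-2- libraries and for 2 the reverse held, with 2 and 1 at an unadjusted p under 0.05 and 0 called by edgeR or DESeq2. Of all genes tested, 25.4% and 24.5% were so ordered, and 8.09% and 7.09% were at that unadjusted threshold. Tgtp1 (Irgb6, an effector of the same kind as Iigp1) had 6.07 and 3.19 CPM in WT and 2.29 and 1.72 CPM in Qa-2- uteri, which gave 1.21 on the log2 scale (unadjusted p = 0.0377). Tgtp1 shares 83.3% of the 100-base windows of its longest transcript with other genes, chiefly its copy Tgtp2 (log2 fold change 0.60), so the split between them is uncertain. Irgq, a family member that lacks a working GTPase site and is not known as an interferon target, went the other way, with 59.0 and 46.7 CPM in WT and 93.8 and 75.7 CPM in Qa-2- uteri (-0.68, unadjusted p = 0.0176).

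Gbp5, which acts on inflammasomes, was nearer to the listed GBP genes, with 8.86 and 8.18 CPM in WT and 5.93 and 7.13 CPM in Qa-2- uteri (0.38, unadjusted p = 0.169). Gbp9, the neighbour of Gbp4, ran from 15.8 CPM in Qa-2- replicate 2 to 29.9 CPM in WT replicate 2, with the other libraries overlapping between them (0.43), and like Gbp4 was highest in WT replicate 2. Gm12250 (Irgb10), which attacks bacterial membranes, had 2.97 and 3.19 CPM in WT and 1.92 and 1.98 CPM in Qa-2- uteri (0.66, unadjusted p = 0.0916). The remaining values lay on both sides of 0: 0.74 for 9930111J21Rik2 (unadjusted p = 0.0445), 0.68 for Gm4951, 0.18 for Gm5431 and 0.06 for 9930111J21Rik1, against -0.62 for F830016B08Rik and, for the very large GTPases Gvin1 and Gm4070, -0.74 and -0.87. Gvin1 and Gm4070 share 97.8% of the windows of the longest Gvin1 transcript and cannot be told apart here. Gbp2b (3 to 17 counts), Gbp8 (19 to 49 counts) and Gm12185 (11 to 37 counts) were under the filter, as were Gbp10, Gbp11 and Irgc1 with at most 7 counts.

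**Figure D4:**
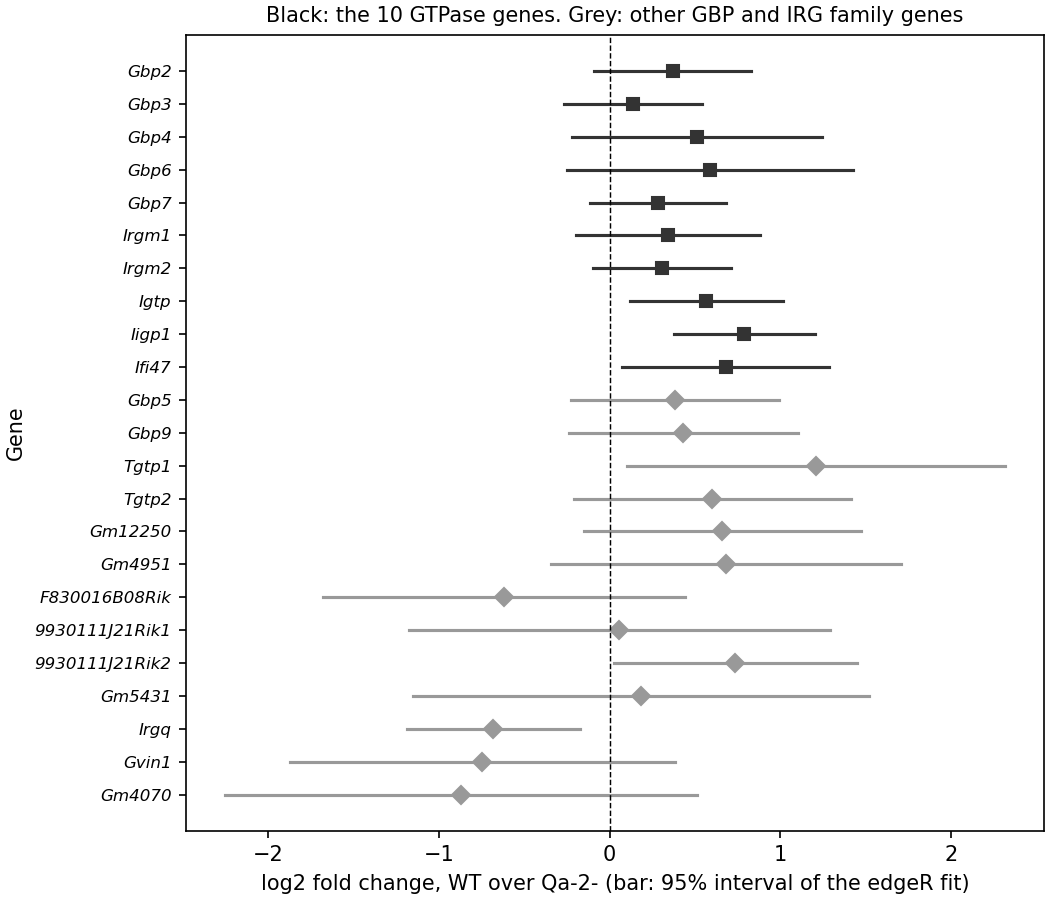
Log2 fold change, WT over Qa-2- (points), with its 95% interval from the edgeR fit (bars) for the 10 listed genes (black) and the 13 other family genes tested (grey). The intervals of Igtp, Iigp1 and Ifi47 lie above 0; Tgtp1 and 9930111J21Rik2 lie above 0 and Irgq lies below 0 among the others.

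The mRNAs of the IFN-γ pathway above these genes had fitted means on both sides of no difference. Of 13 signalling genes, 12 were tested, with 6 fitted means higher and 6 lower in WT and a median of -0.003 on the log2 scale; 0 were called by edgeR or DESeq2 and 0 had an unadjusted p under 0.05. Ifng itself was at the edge of detection, with 11 and 11 counts in WT and 3 and 1 counts in Qa-2- uteri, and was under the filter. Irf1 had 38.6 and 43.6 CPM in WT and 33.4 and 38.2 CPM in Qa-2- uteri, without overlap but close (0.20, unadjusted p = 0.276). Jak2 and the feedback inhibitor Socs1 had higher values in both Qa-2- libraries, with log2 fold changes of -0.80 (unadjusted p = 0.0544) and -0.79 (unadjusted p = 0.0664). Of 11 genes for IL-12, IL-15, IL-18 and the factors that drive IFN-γ production, 4 were tested, with a median of 0.21 and 0 at the unadjusted threshold, and Il12a had 0 counts in every library.

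Other genes that IFN-γ induces had a median close to that of the GTPases. Of 16 such genes 13 were tested, 12 with a higher fitted mean in WT, and their median was 0.48; 7 were free of overlap, all higher in WT, 5 had an unadjusted p under 0.05, 0 were called by edgeR and 1 by DESeq2. Cxcl10, a chemokine for T cells and NK cells, had 3.50 and 2.28 CPM in WT and 1.19 and 0.774 CPM in Qa-2- uteri (1.56, unadjusted p = 0.0158). Upp1, a uridine phosphorylase, was the gene called by DESeq2 (1.19, adjusted p = 0.0214), and its edgeR unadjusted p was 0.00816. Cxcl9 had 1.37, 0.584, 0.480 and 1.12 CPM in the order WT replicates 1 and 2 and Qa-2- replicates 1 and 2, so its groups overlapped (0.30). Nlrc5, which drives MHC class I genes, was higher in both WT libraries (0.48, unadjusted p = 0.0869), while Ciita, which drives class II genes, had a value of -0.20. The summed CPM of the 10 GTPases over that of the IFN-γ targets was 1.08 and 1.21 in WT and 1.29 and 1.14 in Qa-2- uteri, and these ranges overlap.

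The antigen presentation genes that IFN-γ induces, many of which lie in the H2 complex, where the strains differ at least in part, gave a median of 0.34 over 14 of 14 tested. At an unadjusted p under 0.05, 1 of the 14 was higher in WT, as were 8.09% of all genes tested. That gene was B2m, which lies outside H2 (1.33, unadjusted p = 0.0265, DESeq2 adjusted p = 0.0256), with 1310 and 586 CPM in WT against 359 and 397 CPM in Qa-2- uteri, so that WT replicate 1 stood apart, as it did for the summed CPM of the 14 genes (6630 against 3439 in WT replicate 2 and 2596 and 3244 in Qa-2- uteri). Genes best known as type I interferon targets had a higher median than the GTPases, a difference that was not tested. All 20 were tested and had higher fitted means in WT, with a median of 0.69; 15 were free of overlap, 9 had an unadjusted p under 0.05, 0 were called by edgeR and 5 by DESeq2. Isg15, the ubiquitin-like modifier, had 18.0 and 16.8 CPM in WT and 6.75 and 7.33 CPM in Qa-2- uteri (1.30, unadjusted p = 0.00105). Ifit1 (1.42) and Ifit2 (1.35) were the other genes with the largest values, and the sensors Ddx58 (0.09) and Ifih1 (0.11) had the smallest. The summed CPM of the GTPases over that of these 20 genes was 0.451 and 0.498 in WT and 0.546 and 0.540 in Qa-2- uteri.

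The partners that GBPs and IRGs use at the vacuole and in inflammasomes had a median nearer to that of all genes. All 19 were tested, 12 with higher and 7 with lower fitted means in WT, and their median was 0.17. At an unadjusted edgeR p under 0.05, 2 of the 19 were higher in WT, as were 8.09% of all genes tested, and 0 were called by edgeR or DESeq2. Both WT libraries lay above both Qa-2- libraries for 8 of the 19 and below both for 2, against 25.4% and 24.5% of all genes tested. Gsdmd, the pore protein of pyroptosis, had a value of 0.50 (unadjusted p = 0.0726), Gabarapl1 one of 0.49 (unadjusted p = 0.182) and Atg3, of the conjugation machinery that places Irg proteins correctly, one of 0.41 (unadjusted p = 0.0339). Of the same machinery, Atg12 was the other gene under that threshold (0.39, unadjusted p = 0.0411) and Atg5 was higher in both WT libraries (0.23, unadjusted p = 0.199), while Atg16l1 (-0.02) and Atg7 (-0.05) were close to 0.

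**Figure D5:**
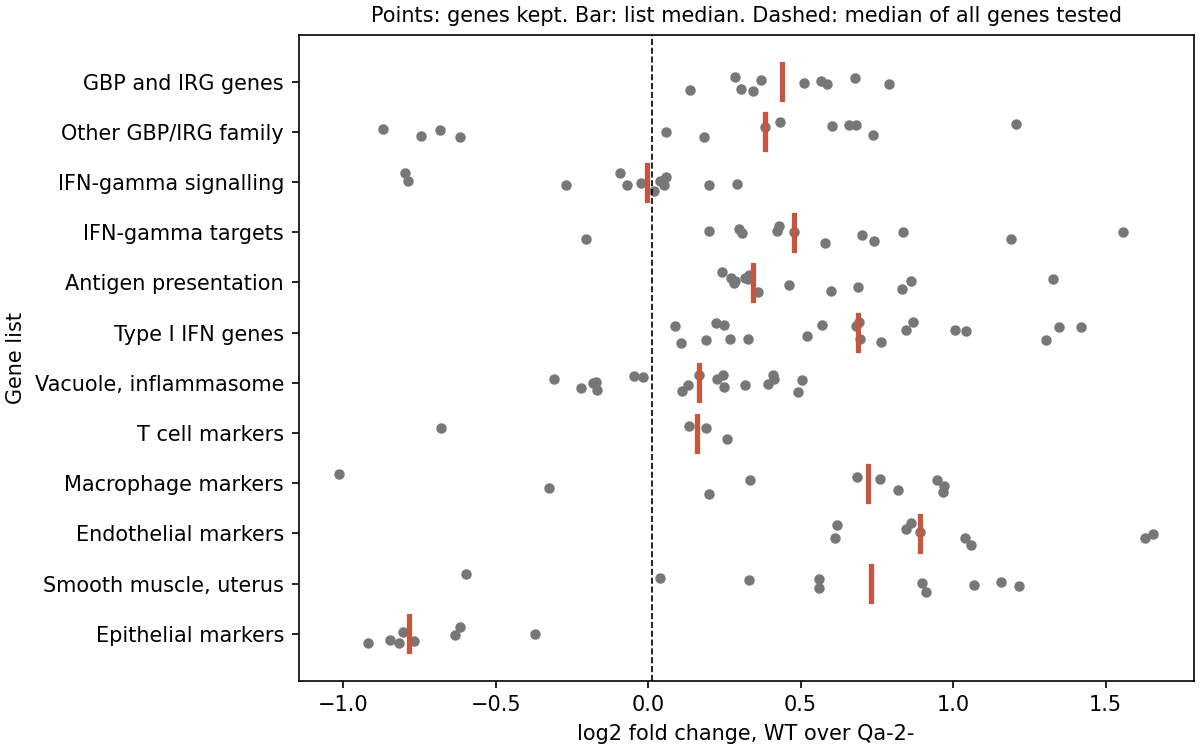
Log2 fold change, WT over Qa-2-, for each gene tested in 12 gene lists (grey points, spread vertically at random), with the median of each list (red bar) and the median of all genes tested (dashed line, 0.01). The listed GBP and IRG genes have a median of 0.44, between IFN-γ signalling (-0.003) and endothelial markers (0.89).

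Markers of cells that could carry these mRNAs also differed between the groups. All 9 endothelial markers were free of overlap and higher in WT (median 0.89 on the log2 scale), with 9 at an unadjusted p under 0.05, 0 called by edgeR and 7 by DESeq2. Their summed CPM was 1382 and 1217 in WT and 619 and 595 in Qa-2- uteri, and Cldn5, of endothelial tight junctions, had the largest value (1.66, unadjusted p = 7.48e-04). The summed CPM of the 10 GTPases over that of these markers was 0.221 and 0.242 in WT and 0.374 and 0.374 in Qa-2- uteri, so relative to endothelial mRNA the GTPases were higher in the Qa-2- libraries. The part of endothelial cells in the result was not tested.

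Of 10 macrophage and leukocyte markers, 6 lay higher in both WT libraries and 1, Ptprc, in both Qa-2- libraries (-0.33), with a median of 0.72, 5 at an unadjusted p under 0.05, 0 called by edgeR and 4 by DESeq2. Cd14 also had a lower fitted mean in WT (-1.01), with 25.1 and 21.2 CPM in WT and 17.3 and 76.4 CPM in Qa-2- uteri, so Qa-2- replicate 2 stood apart. The summed CPM of the 10 markers was 1371 and 1811 in WT and 1081 and 928 in Qa-2- uteri. The GTPases over these markers came to 0.222 and 0.162 in WT and 0.215 and 0.240 in Qa-2- uteri, which overlap, and the part of macrophages was not tested. Smooth muscle markers summed to 26793 and 44071 CPM in WT and 23633 and 13114 CPM in Qa-2- uteri, and epithelial markers, of which 8 of 8 had a lower fitted mean in WT (median -0.79), to 2309 and 1364 against 3133 and 3108 CPM. The part of these tissues was not tested either.

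Markers of NK cells, the known source of uterine IFN-γ, did not all run the same way over the libraries. Of 9 markers 6 were tested, none at 0 counts in any library, and their summed CPM reached 269 in WT replicate 1, against 12.1 in the other WT library and 10.02 and 29.4 in Qa-2- replicates 1 and 2, and the groups overlapped for all 6. The high sum of WT replicate 1 came from the killing genes Prf1 (78.4 CPM), Gzmb (27.0 CPM) and Gzmc, whereas the receptor gene Klrk1 was lowest there (0.799 CPM) and highest in Qa-2- replicate 2 (2.18 CPM), where Gzma was highest too, and the receptor gene Il2rb was about as high in both of these libraries (12.4 and 11.6 CPM). WT replicate 1 was also the library in which 8 of the 10 GTPases were highest, and the part of NK cells was not tested. Without that library Irgm1 had a log2 fold change of 0.04 (0.34 with it), Gbp3 of 0.05 (0.14), Iigp1 of 0.67 (0.79) and Gbp4 of 0.77 (0.51). The 4 of 9 T cell markers that were tested summed to 7.31 and 9.01 CPM in WT and 7.76 and 9.14 CPM in Qa-2- uteri, so the sums overlapped. Of these 4 only Cd4 was free of overlap, with 0.974 and 2.90 CPM in WT and 3.28 and 2.92 CPM in Qa-2- uteri (-0.68). The 4 of 12 placenta and yolk sac markers tested summed to 6.24, 53.0, 471 and 30.1 CPM in the same order, Prl3d1, Gcm1 and Synb being at 0 counts in every library. When WT replicate 1 was set against Qa-2- replicate 2 alone, the pair lowest in these markers, the log2 fold changes of the 10 genes ran from 0.12 (Gbp3), 0.25 (Gbp2) and 0.33 (Gbp4) to 0.69 (Igtp), 0.75 (Gbp6) and 0.91 (Iigp1), with no test. That pair also joins the library highest for 8 of the 10 genes with the one lowest for 7 of them.

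Outside all lists, the genes whose levels ran most like the mean of the 10 GTPases over the 4 libraries were Hccs, Smim15, Serf2, Rdh14 and Memo1, at Euclidean distances from 0.0232 to 0.0425. Hccs, a mitochondrial haem lyase, had 16.6 and 15.6 CPM in WT and 12.2 and 11.5 CPM in Qa-2- uteri. With 4 libraries such a likeness describes the order and spacing of 4 values and nothing more.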

How the data were processed

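The deposited values were counts of read pairs per gene, made by the authors without normalization, in 1 table per library. The file headers name featureCounts 2.0.0 with strand-reversed counting of pairs with both ends mapped, a minimum mapping quality of 3, and exclusion of pairs with several positions or genes. The submitters' processing notes also list STAR 2.7.3a and GRCm38.p6. Symbols came from GENCODE M21, which held 55240 of the identifiers. No column of per-sample values was left unused (0).

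The filter, worded as in the study's methods, kept genes that reached 1 CPM of the total count in 2 or more libraries, which left fewer genes than the study states. The methods name no test for the transcriptome. Counts were scaled by TMM (factors 0.957 to 1.05) and compared as WT over Qa-2- with edgeR 4.0.16 (glmQLFit and glmQLFTest) in R 4.3.3, with Benjamini-Hochberg adjustment over all genes kept and a threshold of 0.05. SE is the log2 fold change divided by the square root of F. CPM are on TMM-scaled library sizes. DESeq2 1.42.0, other normalizations and filters, a robust fit, removal of haemoglobin and mitochondrial genes, a replicate block and leaving out each library were the alternatives. Figures were drawn with matplotlib 3.10.9, and the steps were tested on simulated data.

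The replicate numbers come from the labels. Same-numbered libraries deviated from their groups in opposite directions (correlation -0.37), and the numbers were not taken as pairs. Replicate libraries differed by more than sampling noise (chi-square per gene 188.4 in WT, 117.8 in Qa-2-). The members and gene lists were chosen with earlier results of these data known. The text names all 10 members, other family genes with at least 10 counts in 1 library, 7 fixed pathway genes, 1 of which is not reported here, the 3 genes with the largest and the 2 with the smallest differences in a list (not all printed), and the 5 nearest profiles; Jak2, Socs1, Atg5, Atg12, Il12a, Ptprc, Gbp10, Gbp11, Irgc1 and the marker genes beside library checks were chosen after their values were seen.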

Additional observations from a re-analysis of the deposited data

How the results depend on the processing

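Each of the 10 genes kept a log2 fold change above 0 in every alternative fit, and kept in 129 of the 130 cases with an adjusted p its side of the adjusted threshold; the exception was Iigp1 with DESeq2. DESeq2 thus called 1 of the 10 genes against 0 with edgeR, and over all genes 700 against 0. The number at an unadjusted p under 0.05, 3 of 10, was 1 (Iigp1) with a replicate block, 2 with library totals alone, 5 with the crossed pairing as the block, which was chosen after seeing the data, and between 1 and 3 when a library was left out, with 1 without Qa-2- replicate 1. The genes changed: Iigp1 was under 0.05 in all 4 of these fits, Ifi47 without WT replicate 2 or Qa-2- replicate 2, Gbp2 and Gbp4 without WT replicate 1, Irgm1 without WT replicate 2, and Igtp in 0 (unadjusted p from 0.0513 to 0.136). The number of all 14492 genes higher in WT at an unadjusted p under 0.05 moved as well. It was 1172 in the main fit, 717 with the replicate block, 852 with library totals alone and 1867 with the crossed pairing. The replicate block changed no adjusted call among the 10 genes and gave 2 calls over all genes. The median of the 10 genes (0.44) was 0.34 with library totals alone, where the median of all genes moved to -0.08, and 0.36 to 0.47 with a library left out. The median of IFN-γ signalling genes (-0.003) was -0.099 with library totals alone, 0.031 with no filter, and -0.089 to 0.095 with a library left out. That of type I interferon genes (0.69) was 0.49 to 0.66 with a library left out and 0.51 for WT replicate 1 against Qa-2- replicate 2 alone, also added after seeing the data. The median of the other family genes (0.38) was 0.22 to 0.68 with a library left out. Single genes moved by over 1.5 times with library totals alone (Gbp3, 0.04), for WT replicate 1 against Qa-2- replicate 2 alone (Gbp4, 0.33; Irgm1, 0.54), without WT replicate 1 (Irgm1, 0.04; Gbp3, 0.05; Gbp4, 0.77), without Qa-2- replicate 1 (Gbp3, 0.06) or 2 (Gbp3, 0.22) and without WT replicate 2 (Gbp2, 0.18; Gbp4, 0.16; Irgm1, 0.57). The cause was not tested. A group left with 1 library was assumed to vary like the other. Gbp6 had the fewest counts behind its values, 71 to 150 per library.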
